A study of Homo sapiens with 24 samples.

Results

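In irradiated HEK cells, a prior dose of a DNA minor groove binding ligand was followed by no probe-level difference that passed correction for multiple testing. The comparison sets cells given the ligand before radiation against cells given radiation alone, and so gives the ligand difference in irradiated cells, which may include differences that the ligand also makes without radiation. It holds 12 of the 24 arrays of the series, chosen by title, which are 6 samples with 3 replicate numbers in each group. Both groups were HEK cells, an immortal line of human embryonic kidney origin, plated 24 h before the experiment and irradiated with 2 Gy. One group had also received 50 uM of the ligand 1 h before irradiation, and RNA was taken 4 h after treatment. The remaining groups of the series are untreated cells and cells given the ligand alone, and they enter the normalization, the mean levels of probes, the levels set beside those of 4 probes and the test of the interaction. Each sample was hybridised to 1 array of letter A and 1 of letter B, with 19700 probes each and no shared identifier, so 39400 probes were measured per sample. The letters were analysed one at a time, and each sample given the ligand was paired with the irradiated sample of the same number. The labels do not say whether the 3 numbers are separate cultures, so the p-values cover only variation among these samples, some of it perhaps technical.

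Minor groove binding ligands are small molecules that lie along the narrow groove of the DNA helix, mostly at stretches rich in A and T, without cutting the strands. Some are used as stains for nuclei, and some have been studied as modifiers of radiation damage. Ionizing radiation breaks DNA, and in most cells the breaks activate the kinase ATM and the transcription factor p53, which raises the transcripts of genes that arrest the cell cycle, repair DNA or start cell death. In the most widely used HEK line, adenovirus genes are present whose proteins bind p53; the labels do not name the subline, nor the ligand. The files give array identifiers and no gene names, and 0 of the 39400 identifiers occur in the RefSeq gene table used here. The transcripts behind the probes, among them the p53 targets, the DNA repair genes and the markers of the cell line, were therefore not analysed here, and no probe sequence is shown.

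The arrays compared were of unequal brightness, most of all in number 3. On letter A the median probe intensity, on the linear scale as deposited, was 625 after radiation and 553 after ligand and radiation in number 1. In number 2 it was 250 and 248, and in number 3 it was 34.5 and 166.5. Thus the irradiated array of number 3 was the dim one of its pair on letter A, and every value on it was a multiple of 0.5, with 912 different values among 19700 probes. On letter B the medians of a pair lay closer, at 397 and 434, 179 and 186, and 213 and 225 in numbers 1, 2 and 3. The empty spots, listed for numbers 1 and 2, had medians between 16.8 and 34.5 on these 8 arrays, and 96.4% to 99.8% of probes were brighter than the 95th percentile of the empty spots of their array. After quantile normalization within a letter, the 2 arrays of a number had Spearman correlations of 0.85 to 0.89 across probes on letter A and 0.80 to 0.87 on letter B. Arrays of 1 treatment and different numbers had 0.37 to 0.86 on letter A and 0.48 to 0.77 on letter B. Of these, numbers 1 and 2 had 0.83 and 0.86 on letter A and 0.75 and 0.77 on letter B, and each pair with number 3 was lower. Arrays that differed in both number and treatment had 0.37 to 0.86 on letter A and 0.39 to 0.80 on letter B. On letter B the array of number 1 with ligand and radiation had 0.805 with radiation in number 2 and 0.802 with radiation in number 1.

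**Figure D1:**
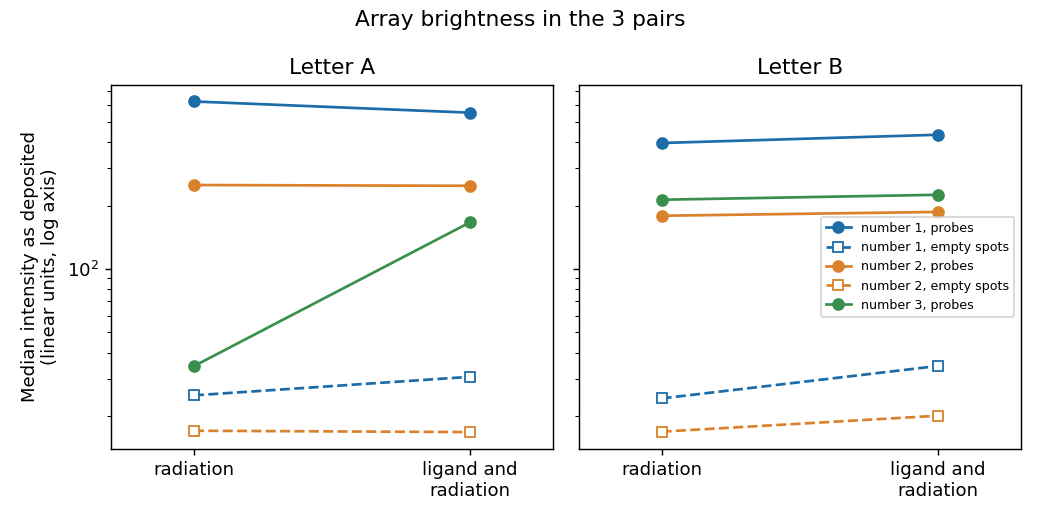
Median probe intensity as deposited (linear units on a log axis) after radiation and after ligand and radiation, with a line for each replicate number; open squares are the medians of empty spots in numbers 1 and 2. The letter A pair of number 3 goes from 34.5 to 166.5, while the other 5 pairs are nearly level.

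The main test was limma on the 3 within-number differences, with replicate number as a block, and p-values adjusted over both letters. Of 39400 probes, 0 passed at an adjusted p under 0.05, a background of 0% called, and the lowest adjusted p was 0.675. At an unadjusted p under 0.05 there were 2427 probes, or 6.16% of those tested, of which 1289 (3.27%) were higher and 1138 (2.89%) lower with the ligand. Letter B held 974 of the higher and 813 of the lower probes, and letter A held 315 and 325. The count was 1040 without number 1, 3801 without number 2 and 2631 without number 3. The standard error of the difference had a median of 0.18 log2 units over probes.

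By size alone, 569 probes (1.44%) had a mean difference of 2-fold or more, 398 higher with the ligand (1.01%) and 171 lower (0.434%). The count of 2-fold differences was 870 without number 1 and 1109 without number 3. Few of them were repeated from number to number. In number 1, 998 probes were 2-fold higher and 680 lower, in number 2 1100 and 723, and in number 3 1339 and 804. Of the 39290 probes measured in all 3 pairs, 5197 crossed 2-fold in at least 1 number, 248 did so in the same direction in 2 or more, and 157 crossed it in opposite directions. In all 3 numbers 5 probes were 2-fold higher and 2 were 2-fold lower. With each run of neighbouring spots on the array centred on its median, these counts were 0 and 2, and 118 probes in place of 248 crossed 2-fold in the same direction in 2 or more numbers.

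**Figure D2:**
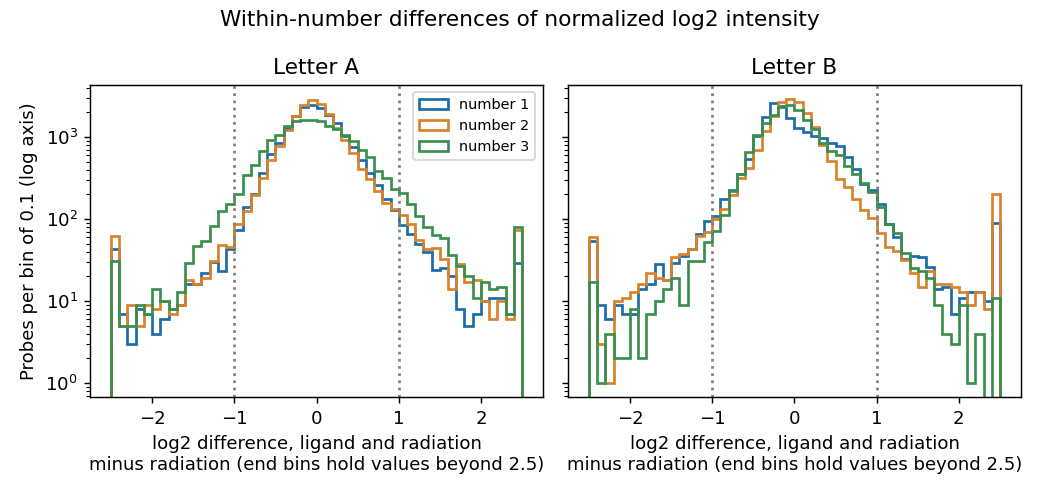
Log2 difference of each probe, ligand and radiation minus radiation, in numbers 1, 2 and 3, as counts of probes per bin of 0.1 on a log axis; dotted lines mark 2-fold. On letter A the differences spread most in number 3 (SD 0.61, against 0.47 and 0.52), and on letter B in number 2 (SD 0.63, against 0.57 and 0.45).

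The share of 4-fold differences lying side by side on the array varied from set to set. Counted per number and letter, 1129 differences reached 4-fold, 716 higher and 413 lower with the ligand. In 81 of them (7.17%) the same probe reached 2-fold the same way in either of the other numbers. Over all probes, 4.27%, 4.63% and 5.44% crossed 2-fold in either direction in numbers 1, 2 and 3. A share over all probes for 1 direction in either of 2 numbers was not computed, so the 7.17% is not read as repetition. The largest set was the 248 probes that were 4-fold higher in number 2 on letter B. Of these, 67 fell in 1 run of 420 neighbouring spots, and 60.5% had another of the 248 directly beside them in the print order, although the set makes up 1.26% of the letter's probes. On letter A, 35 of the 106 probes that were 4-fold higher in number 2 lay in the first run, and 40 of the 132 in number 3 lay in run 45. Over the 12 sets of letter, number and direction the share with such a neighbour went from 3.51% to 60.5%. It was lowest for the 57 lower probes in number 3 on letter A, which made up 0.289% of the letter's probes. Next came 4.65% of the 86 lower probes in number 2 on letter B, a set of 0.437%. In number 3 on letter B it was 8% for the 25 higher and 7.69% for the 26 lower probes, sets of 0.127% and 0.132%. In each of the 12 sets the share with a neighbour was above the set's share of the letter's probes. The share with a neighbour also rises with the size of a set. The value for equally many scattered spots was not computed, so these shares are descriptions.

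The direction of the difference followed the position of the spot over the whole array. The listed order of the spots was taken as the print order and divided into 48 runs of 420 for each letter. The median difference of a run was computed for each number. On letter A it ranged from -0.49 to 0.72 in number 1, from -0.25 to 1.11 in number 2 and from -0.65 to 0.54 in number 3, on the log2 scale. On letter B the ranges were -0.37 to 0.88, -0.16 to 0.18 and -0.49 to 0.82. The first 12 runs are set against the other 36, a split chosen after these medians were seen. Single runs overlapped across it. On letter B run 16 had 0.31, 0.01 and 0.32 in numbers 1, 2 and 3, above the 0.22, -0.05 and 0.19 of run 10. On letter B the median difference was 0.45 in the first 12 runs and -0.19 in the rest in number 1, and 0.36 and -0.12 in number 3. In number 2 it was 0.02 and -0.05. On letter A numbers 1 and 2 both had 0.26 in the first 12 runs, against -0.10 and -0.09 in the rest, while number 3 had -0.19 against 0.01.

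**Figure D3:**
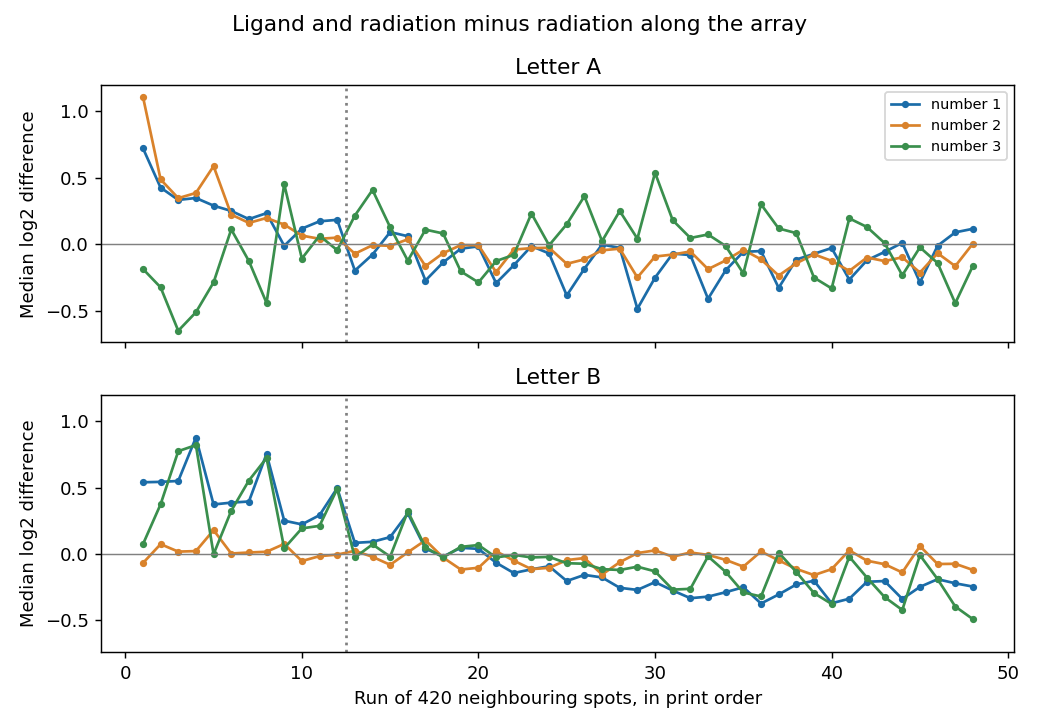
Median log2 difference, ligand and radiation minus radiation, of the probes in each run of 420 neighbouring spots, by run in print order, for letters A and B; the dotted line follows run 12. Numbers 1 and 2 on letter A and numbers 1 and 3 on letter B have their highest run before run 12 and lie mostly below 0 after it. Their highest runs reach 1.11 on letter A and 0.88 on letter B. Number 3 on letter B begins at 0.07 and reaches 0.82 in run 4.

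The same arrays gave what agreement there was between numbers. Across the probes of letter A, which share position and are not replicates, the differences in numbers 1 and 2 had a Spearman correlation of 0.31, and those of number 3 had -0.16 and -0.09 with them. On letter B the value was 0.45 between numbers 1 and 3 and 0.07 and 0.08 for the pairs with number 2. With each run centred on its median in every array before normalization, the 6 correlations lay between 0.004 and 0.06. Runs held 22.4%, 23.3% and 18.7% of the sum of squares of the differences on letter A in numbers 1, 2 and 3, and 31.5%, 6.48% and 43.6% on letter B. The probes of either direction were correspondingly uneven in place. The first 12 runs were split off after the run medians were seen, so the shares below describe this placement and do not test it. The first 12 runs hold 25% of all probes, 82.9% of those that were higher at an unadjusted limma p under 0.05 and 1.49% of those that were lower. Outside these runs 220 probes were higher and 1121 lower. With runs centred, the count at an unadjusted p under 0.05 was 1165 in place of 2427, 534 of them higher and 631 lower, and 0 passed the adjustment.

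**Figure D4:**
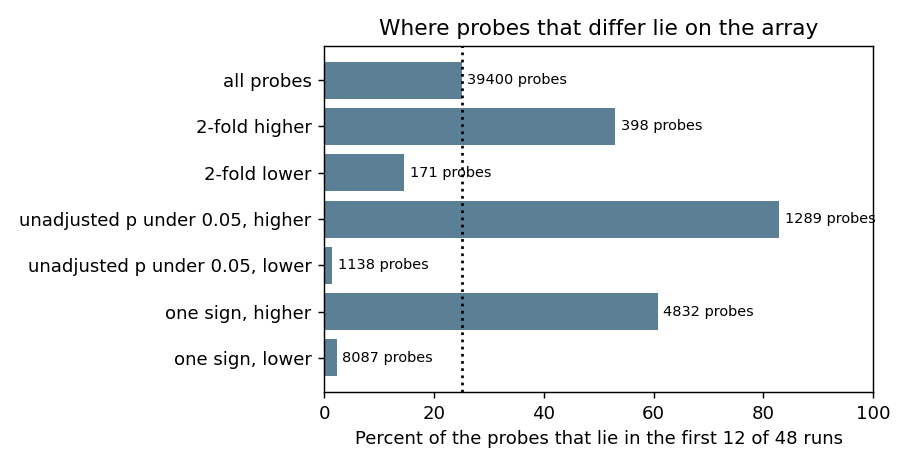
Percent of the probes in each set that lie in the first 12 of the 48 runs, with the number of probes beside each bar; the dotted line is the value for all probes. Probes higher with the ligand lie mostly there (53%, 82.9% and 60.8%), and probes lower with it seldom (14.6%, 1.49% and 2.30%). The split into first 12 and later runs was made after the run medians of these differences were seen.

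Single arrays of both treatments departed in the first 12 runs. Relative to the mean of the 12 arrays of its letter, the irradiated array of number 1 on letter B was at -0.38 in the first 12 runs and 0.17 in the rest, and that of number 3 at -0.28 and 0.05. The arrays given ligand and radiation were at 0.10 and 0.01 in number 1 and at 0.14 and -0.10 in number 3. In number 2 the first 12 runs were at 0.05 after radiation and 0.10 after ligand and radiation. On letter A they were at 0.38, 0.13 and -0.27 after ligand and radiation in numbers 1, 2 and 3, and at 0.08, -0.15 and -0.06 after radiation alone. On letter A the arrays of 1 treatment thus lay on both sides of 0. On letter B every array given ligand and radiation lay above 0 in these runs and above the irradiated array of its number, by the least in number 2. Centring the runs showed how far counts moved with the level of whole runs, and it left any gradient within a run. Arrays of number 3 list no positions, so their runs rest on the print order of the other arrays. What lay behind the gradients was not tested.

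The 3 differences of a probe had the same sign for 12919 probes, with 4832 (12.3%) higher and 8087 (20.5%) lower with the ligand. Only 6085 of them, or 47.1%, had one sign and the same direction once runs were centred, when 26.4% of probes in all had one sign against 32.9% before. If each sign were random, with either direction equally likely, 25% of probes would have one sign. The median difference of all probes was below 0 in each number, at -0.05, -0.03 and -0.04 in numbers 1, 2 and 3 before centring. Of the 569 mean differences of 2-fold or more, 420 stayed 2-fold in the same direction, 73.8% of that list and 90.1% of the 466 found after centring.

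The spread of the mean differences was widest among the dimmest probes, which did not hold in every number. Probes were split into 5 equal classes by their mean level over the 12 arrays of their letter. The standard deviation of the mean log2 difference was 0.37 in the dimmest class, from 0.31 to 0.32 in the next 3 and 0.34 in the brightest. Taken singly, number 1 was widest in the dimmest class, at 0.58. Number 2 had 0.618 in the middle class against 0.614 in the dimmest, and number 3 had 0.622 in the brightest against 0.602. A difference of 2-fold or more was found for 1.63% of the dimmest probes and 1.03% to 1.45% of the others. The share at an unadjusted limma p under 0.05 was 8.22% in the dimmest class, 6.28% in the next, 5.09% in each of the following classes and 6.17% in the brightest. Between these ends the balance of signs shifted, with 15.1% of the dimmest and 9.87% of the brightest probes higher in all 3 numbers, and 16.9% and 24.1% lower.

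Control spots gave a separate reading of the pairs in numbers 1 and 2, taken relative to the median probe of each array. The 13 oligos whose names mark them as plant controls had median log2 differences between -0.02 and 0.05 over the 4 pairs of letter and number. Single plant oligos ranged from -0.19 to 0.29. The 10 human control oligos had medians of 0.02 and 0.23 on letter A and 0.41 and 0.06 on letter B in numbers 1 and 2. Single human control oligos ranged from -0.95 to 1.38. Copies of 1 oligo on 1 array had a median standard deviation of 0.35 to 0.67 for the human and 0.52 to 0.95 for the plant oligos, on the log2 scale.

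Without gene names, 2 probes each way are given. They are the probes whose smallest difference over the 3 numbers was widest, among 2140 higher and 4451 lower probes with one sign in all numbers and a mean level above the median of their letter. Their values describe the widest repeated differences among these brighter probes only, and none passed the adjustment.

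Probe obshum40K:B#36252 had normalized log2 intensities of 10.37, 9.52 and 9.03 after ligand and radiation in numbers 1, 2 and 3, against 7.48, 8.27 and 7.55 after radiation alone. The groups did not overlap, and number 1 gave the widest difference. The paired difference was 1.87 ± 0.36 log2 units (SE; 3.66-fold, higher in 3 of 3 numbers), with a limma adjusted p of 0.675. Its run, the fourth on letter B, had median differences of 0.88, 0.02 and 0.82 in the 3 numbers, and with runs centred the probe's mean difference was 1.35. In unirradiated cells the ligand difference of this probe was -0.65, -0.61 and -0.15.

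Probe obshum40K:A#34138 was at 11.36, 11.96 and 11.30 after ligand and radiation and at 10.26, 10.13 and 10.01 after radiation alone. The 3 irradiated values lay within a narrow range below all 3 values with the ligand. The paired difference was 1.41 ± 0.21 log2 units (SE; 2.66-fold), with a limma adjusted p of 0.675, and 1.47 without number 3. The probe lies in the first run of letter A, where the run medians were 0.72, 1.11 and -0.19, and with runs centred its difference was 0.86, a change of over 1.5 times. Untreated cells spanned the levels of both groups, at 10.18, 12.08 and 10.13 in numbers 1, 2 and 3.

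Probe obshum40K:A#13950 was lower with the ligand, at 8.76, 8.86 and 7.44 against 10.29, 10.10 and 8.54 after radiation alone. Number 3 was low in both groups, so the groups overlap although each pair differs. The paired difference was -1.29 ± 0.18 log2 units (SE; 2.44-fold), with a limma adjusted p of 0.675. It was -1.38 without number 3 and -1.35 with runs centred. On values as deposited number 3 went the other way, where its intensity was 42 without and 88.5 with the ligand, on the pair of arrays with medians of 34.5 and 166.5. The mean difference on those values was -0.64, at an unadjusted limma p of 0.455. Untreated cells, at 8.90, 8.74 and 7.42, lay close to the level with ligand and radiation.

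Probe obshum40K:B#32246 was at 10.34, 10.42 and 9.01 after ligand and radiation and at 11.37, 11.46 and 10.25 after radiation alone. The 3 paired differences, -1.03, -1.04 and -1.24, were nearly equal, while the groups overlap because number 3 was lower in both. The paired difference was -1.10 ± 0.13 log2 units (SE; 2.15-fold), with a limma adjusted p of 0.675 and a value of -1.03 with runs centred. The ligand difference in unirradiated cells was -1.87, -0.07 and -1.38, which left a limma interaction of 0.004 with a standard error of 0.72.

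**Figure D5:**
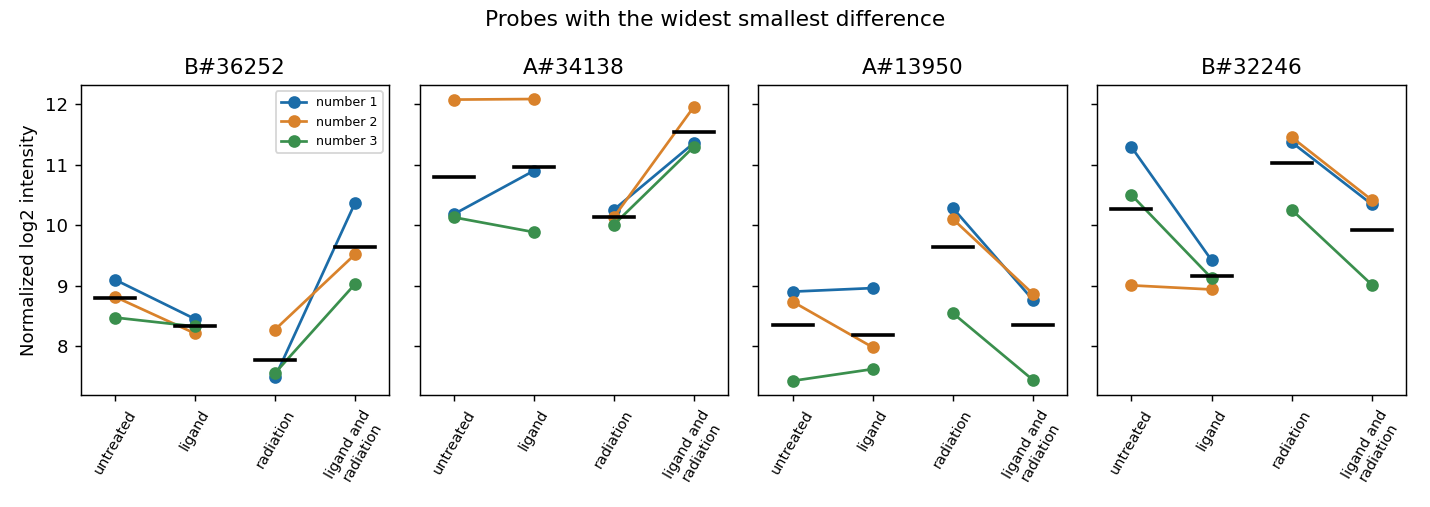
Normalized log2 intensity of the 4 probes in each treatment group, with a colour for each replicate number, lines joining cells without and with the ligand, and black bars for group means (n = 3). All irradiated pairs are higher with the ligand for B#36252 and A#34138 and lower for A#13950 and B#32246, while the unirradiated pairs are all lower with the ligand for B#36252 and B#32246 and of mixed direction for the other two.

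Whether the ligand difference in irradiated cells departed from that in unirradiated cells was tested as the interaction, in a limma fit of all 4 groups with replicate number as a block. Of 39400 probes 0 passed, a background of 0% called, and 1543 (3.92%) had an unadjusted p under 0.05. The widest interaction among the 4 probes was 2.34 for obshum40K:B#36252, with a standard error of 0.41 and a limma adjusted p of 0.969. For obshum40K:A#34138 it was 1.25 with a standard error of 0.57, and for obshum40K:A#13950 it was -1.12 with a standard error of 0.34, both at a limma adjusted p of 0.969. None of the 4 differences was therefore shown to be particular to irradiated cells.

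The authors' own value table, on the log2 scale, gave another count from the same arrays. Its values followed the order of the intensities on each array, and their distribution was equal over the 12 samples when letters A and B were joined (mean SD of 0.00056 between sorted values) but not within a letter (0.32 and 0.31). In number 3 the median difference in the authors' table was therefore 0.50 on letter A and -0.59 on letter B, against -0.03 to -0.02 and -0.11 to -0.04 in numbers 1 and 2. The limma fit with the replicate block on the authors' table called 208 probes, 113 higher and 95 lower, of which 207 were on letter B. Among them were both probes of letter B given above, with limma adjusted p-values of 0.000187 for obshum40K:B#36252 and 0.0148 for obshum40K:B#32246, in each case the lowest over 21 alternatives, of which the highest was 1. Of the 208, 80 had one sign in all 3 numbers, and in 175 a single number held over 60% of the summed absolute difference, as it did for 50.2% of all probes. On the authors' table the prior degrees of freedom of the fit were 159 on letter B and 2.98 on letter A, against 2.63 and 3.30 on values normalized within a letter. With each array of the authors' table centred on its median within the letter, a setting added after this count was seen, limma called 0 probes, with 2396 at an unadjusted p under 0.05.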

How the data were processed

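The 24 single-colour arrays carry Cy3-labelled RNA made by T7-driven linear amplification, per the labels' protocols. The deposited array files hold spot intensities on a linear scale, with scanner, software and background step not given in the sources used here. Per the values, the authors' value table holds log2 values normalized between arrays by a tool that is not stated. Groups, numbers and letters come from the sample titles. The members and lists were chosen with earlier results of these data known.

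Intensities were put on the log2 scale without offset or background correction and quantile normalized over the 12 arrays of a letter, and values listed as not detected were missing. A probe was tested when it had 2 or more complete pairs, which all 39400 had. The limma package (3.58.1, under R 4.3.3; lmFit and eBayes) was used with replicate number as a fixed block and 2 residual degrees of freedom. Benjamini-Hochberg adjustment ran over both letters together, with a threshold of 0.05. The design was fixed on the 2 irradiated groups. An exact sign-flip test of 3 pairs cannot go below a two-sided p of 0.25, so none was run, and precision is limited by the number of arrays.

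Samples were treated as paired by number because the numbers are shared in the titles and because same-numbered arrays deviated together from their group means. These correlations were 0.69, 0.49 and 0.74 on letter A and 0.61, 0.28 and 0.79 on letter B for numbers 1, 2 and 3, and different numbers had -0.71 to 0.36. Deviations from a mean of 3 arrays cancel out, which by itself lowers the values for different numbers. For number 2 on letter B the 0.28 was close to the 0.24 of ligand and radiation in number 1 with radiation in number 2. Arrays of number 3 list probes without positions and were placed by identifier in the print order of the others. Named probes followed a fixed rule, given with their values. Figures were drawn with matplotlib 3.10.9.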

Additional observations from a re-analysis of the deposited data

Results flagged for a closer look

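For probe obshum40K:B#36252 the ligand difference was above 0 in all 3 numbers of irradiated cells and below 0 in all 3 numbers of unirradiated cells. The difference between these effects was 2.34 on the log2 scale, with an unadjusted limma p of 0.000338 and an adjusted p of 0.969, so it did not pass. With 39400 probes looked at and this probe chosen for its difference, the opposite signs are a description.

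The human control oligos, which entered no test, were on the median brighter relative to the median probe after ligand and radiation than after radiation alone in all 4 pairs of letter and number. The smallest of the 4 medians was 0.023 and the largest 0.41 on the log2 scale, and 6 to 9 of the 10 oligos were higher in a pair. Plant oligos had medians on both sides of 0.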

How the results depend on the processing

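The count of 0 changed probes held in 20 of the 21 alternatives. The exception was the authors' value table, with 208 changed probes, 986 beyond 2-fold and 30.7% of one sign; centred within letter the last was 31.8%. The count of 2427 probes at an unadjusted p under 0.05 was 1165 with runs centred, 6946 with array weights and 1334 among the probes above the median level. With no replicate block it was 325, and 400 with all 4 groups and no replicate block, so the block moved this count but no call. Leaving out 1 number gave 1040 to 3801, and 828 to 1109 probes beyond 2-fold in place of 569. Probes beyond 2-fold were 336 with an offset of 50, 304 among the probes above the median level and 2693 on values as deposited, where the median of all probes shifted to 0.45 and 2617 of them were higher. At an unadjusted p under 0.05, 1966 were higher and 225 lower on values as deposited, and 1441 and 747 with median centring, against 1289 and 1138. The share of one sign, 32.9%, was 31.9% with median centring, 27.1% on values as deposited, 26.4% with runs centred and 33.6% among the probes above the median level, and was not computed with a number left out. No named probe changed direction. Causes were not tested, except that fewer probes or samples enter some fits.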
